A study of Arabidopsis thaliana with 12 samples.

Results

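The 4 genes for the small subunit of Rubisco in Arabidopsis thaliana (RBCS1A, AT1G67090; RBCS1B, AT5G38430; RBCS2B, AT5G38420; RBCS3B, AT5G38410) and the gene for Rubisco activase (RCA, AT2G39730) were taken by gene ID from the 27655 genes of the count tables. All 5 had enough reads for a test. Polyadenylated RNA of whole seedlings was sequenced in 12 libraries, with 3 libraries in each group. Libraries 1, 3 and 7 held 5-day geralt seedlings and libraries 2, 4 and 8 wild type of that age. Libraries 5, 9 and 11 held 12-day geralt seedlings and libraries 6, 10 and 12 wild type of that age. The geralt plants were the T-DNA insertion line SALK_116579, which the sample titles call phr2, and the wild type was the Col stock N6000. All seedlings were raised under short days in sterile culture on sucrose-containing B5 medium, and tissue was taken some hours into the light period. A single insertion line was used, and the labels do not give how many seedlings made up a library.

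Rubisco fixes CO2 in the Calvin cycle. The enzyme joins a large subunit, encoded by RBCL in the plastid genome, with small subunits that are encoded by the nuclear RBCS family and imported into the chloroplast. RCA is an ATPase that frees Rubisco's active sites from bound sugar phosphates. RBCS and RCA are among the most abundant leaf messenger RNAs, their transcription is induced by light, and in plants with damaged plastids nuclear photosynthesis genes are known to be less expressed.

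The genes lay on 3 chromosomes, all on the minus strand (TAIR10). RBCS3B (chr5:15376988-15378642), RBCS2B (chr5:15380907-15382071) and RBCS1B (chr5:15383167-15385320) stood next to each other on chromosome 5, with 2264 bases between RBCS3B and RBCS2B and 1095 bases between RBCS2B and RBCS1B. RBCS1A was at chr1:25048158-25049667 and RCA at chr2:16570746-16573692. No listed gene overlapped an RBCS copy. RCA overlapped AT2G39725 on the opposite strand, and whether the counting used strand is not given, so reads of these overlapping genes cannot be told apart.

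Coding sequences of the chromosome 5 copies were 96.7% to 97.3% identical to each other over 546 bases and 89.9% to 90.1% identical to RBCS1A. At 7 of the 25 coding bases that varied among the chromosome 5 copies, RBCS2B alone differed. The 120-base stretch below, from coding base 331 to 450 and without an intron, holds 3 of these. It is shown because it tells RBCS2B from its neighbours, which were identical to each other there. Sequences are from RefSeq (TAIR10.1, minus strand), and capitals mark the bases that vary among the copies.
RBCS2B, chr5:15381299-15381418: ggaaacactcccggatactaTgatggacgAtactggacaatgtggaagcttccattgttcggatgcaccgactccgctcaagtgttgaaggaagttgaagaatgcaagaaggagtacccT
RBCS1B, chr5:15384446-15384565: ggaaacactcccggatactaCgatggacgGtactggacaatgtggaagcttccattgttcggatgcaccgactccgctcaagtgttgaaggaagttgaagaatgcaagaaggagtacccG
RBCS3B, chr5:15377597-15377716: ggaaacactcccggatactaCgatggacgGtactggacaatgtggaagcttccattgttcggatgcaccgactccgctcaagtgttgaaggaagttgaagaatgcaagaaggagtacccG

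The reads told RBCS2B from the other copies. Reads had 150 bases at most, and of the 150-base windows of the annotated transcripts none of RBCS2B or RBCS1A occurred in another copy, while 4.80% of those of RBCS1B occurred in RBCS3B and 5.42% of those of RBCS3B in RBCS1B. Between 99.9% and 100% of the RBCS2B reads of each library were unique gene reads, that is, reads that the deposited tables place at a single gene. Its reads that were not unique numbered 0 to 7 per geralt library and 88 to 109 per wild-type library. The unique share of RBCS1B was 93.2% to 97.6% in geralt and 93.7% to 96.5% in wild-type libraries, and that of RBCS3B was 95.2% to 98.3% in geralt and 95.6% to 97.6% in wild-type libraries, so the genotypes overlapped. Reads of RCA and, but for 3 reads, of RBCS1A were all unique. The widest 95% Clopper-Pearson interval of a unique share, which covers counting error alone, was 96.7% to 97.0%, for RBCS1B in geralt library 5. The levels of RBCS1B and RBCS3B are uncertain by the reads that were not unique, since how these were assigned is not given.

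Upstream sequence was read for motifs known from light-regulated plant genes, on both strands of the 500 bases before the start codon. The G-box CACGTG was found in RBCS1A, RBCS2B, RBCS3B and RCA, with 1 match each, and not in RBCS1B, and 9.3% of 27443 genes had it. The I-box GATAAG had 3 matches in RBCS2B and RBCS3B, 2 in RBCS1A and RBCS1B and 1 in RCA, and 23.5% of genes had it. The GT1 core GGTTAA (24.5% of genes) had 1 match in RBCS1A, RBCS1B and RBCS2B, and the TATA box TATAAA (64.3% of genes) had 1 or 2 in each of the 5. AGATAA, which can overlap the I-box, had 1 to 4 (43.7% of genes). The G-box of RBCS2B began 216 bases before the start codon and that of RBCS3B 217 bases before it. The 30 bases around each G-box are shown so that the copies can be compared, with the motif in capitals (TAIR10.1, minus strand), and those of RBCS1A, RBCS3B and RCA lie inside the annotated gene.
RBCS1A, chr1:25049491-25049520: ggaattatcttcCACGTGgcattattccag
RBCS2B, chr5:15382177-15382206: ggagttttctgcCACGTGatcttatcctag
RBCS3B, chr5:15378506-15378535: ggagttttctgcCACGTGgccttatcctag
RCA, chr2:16573579-16573608: ataaacatattcCACGTGgaccaatcaaaa

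The 250 bases before the annotated start of RBCS2B are shown because this copy had the largest fold change of the 5 genes. The TATA box of RBCS2B, 80 bases before the start codon, lies inside the annotated gene and is not in this stretch. Capitals mark the G-box and the I-boxes, on either strand, and AGATAA where it overlaps an I-box. These matches are a description of letters and do not show that a factor binds there.
RBCS2B, chr5:15382072-15382321: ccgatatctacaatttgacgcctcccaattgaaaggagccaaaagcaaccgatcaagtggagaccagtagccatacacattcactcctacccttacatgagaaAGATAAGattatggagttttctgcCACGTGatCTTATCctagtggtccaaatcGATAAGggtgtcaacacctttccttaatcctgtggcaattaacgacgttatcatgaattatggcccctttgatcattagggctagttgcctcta

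Total gene reads ran from 41.57 M to 115.029 M per library, and the 4 RBCS copies took 0.831% to 2.67% of them in geralt and 2.54% to 5.09% in wild-type libraries. Levels are given as CPM (reads of the gene relative to the library's total) scaled by the TMM factors of edgeR. PHR2 (AT2G47590), the gene of the insertion line, had 39.7, 20.6 and 28.0 CPM in geralt at 5 days, against 207, 89.2 and 271 CPM in wild type at 5 days. At 12 days it had 30.5, 24.5 and 31.8 CPM in geralt and 193, 207 and 203 CPM in wild type. The genotypes were apart at both ages. A gene count holds no position, so reads on either side of the insertion were not told apart. Of the 12-day geralt libraries, library 5 was the lowest in all 5 genes by a factor of over 2, and wild-type libraries 4 (5 days) and 12 (12 days) had less RBCS1B, RBCS2B and RBCS3B than the other wild-type libraries of their age.

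RBCS2B was much lower in geralt at both ages, the only one of the 5 genes to pass edgeR's quasi-likelihood test (adjusted p under 0.05 over 21122 genes). At 5 days it had 65.7, 58.8 and 78.8 CPM in geralt libraries 1, 3 and 7, against 6804, 3203 and 11140 CPM in wild-type libraries 2, 4 and 8. The 12-day values were 41.6, 627 and 824 CPM in geralt libraries 5, 9 and 11, against 11530, 13260 and 6306 CPM in wild-type libraries 6, 10 and 12. Every geralt library was below every wild-type library, and geralt library 5 was at the level of the geralt libraries of 5 days. Group means were 67.8 ± 10.2 CPM in geralt and 7049 ± 3974 CPM in wild type at 5 days, and 498 ± 407 CPM in geralt and 10370 ± 3620 CPM in wild type at 12 days (SD, n = 3 each). The log2 fold change was -6.70 at 5 days (SE 0.96, edgeR adjusted p = 0.0183), a 104-fold lower level, and -4.38 at 12 days (SE 0.86, edgeR adjusted p = 0.0449), a 20.8-fold lower level.

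By TPM, which divides by exon length, RBCS2B ranked 71st to 1997th among all genes in geralt libraries and 4th to 8th in wild-type libraries. The 5-day call of RBCS2B was lost when 1 of libraries 1, 3 and 7 (geralt) or of libraries 2 and 8 (wild type) was left out, with edgeR adjusted p of 0.0602 to 0.175 and log2 fold changes of -6.82 to -6.21. The call at 12 days held without library 4, 6 or 11 and ended without any other single library (adjusted p of 0.0501 to 0.113), as it did in a fit of the 6 libraries of that age (adjusted p = 0.260). DESeq2 gave adjusted p = 3.03e-19 at 5 days and 7.62e-08 at 12 days. The authors' deposited table gives RBCS2B a log2 fold change of -6.76 (FDR 2.34e-72) at 5 days and -4.41 (FDR 9.7e-08) at 12 days.

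**Figure D1:**
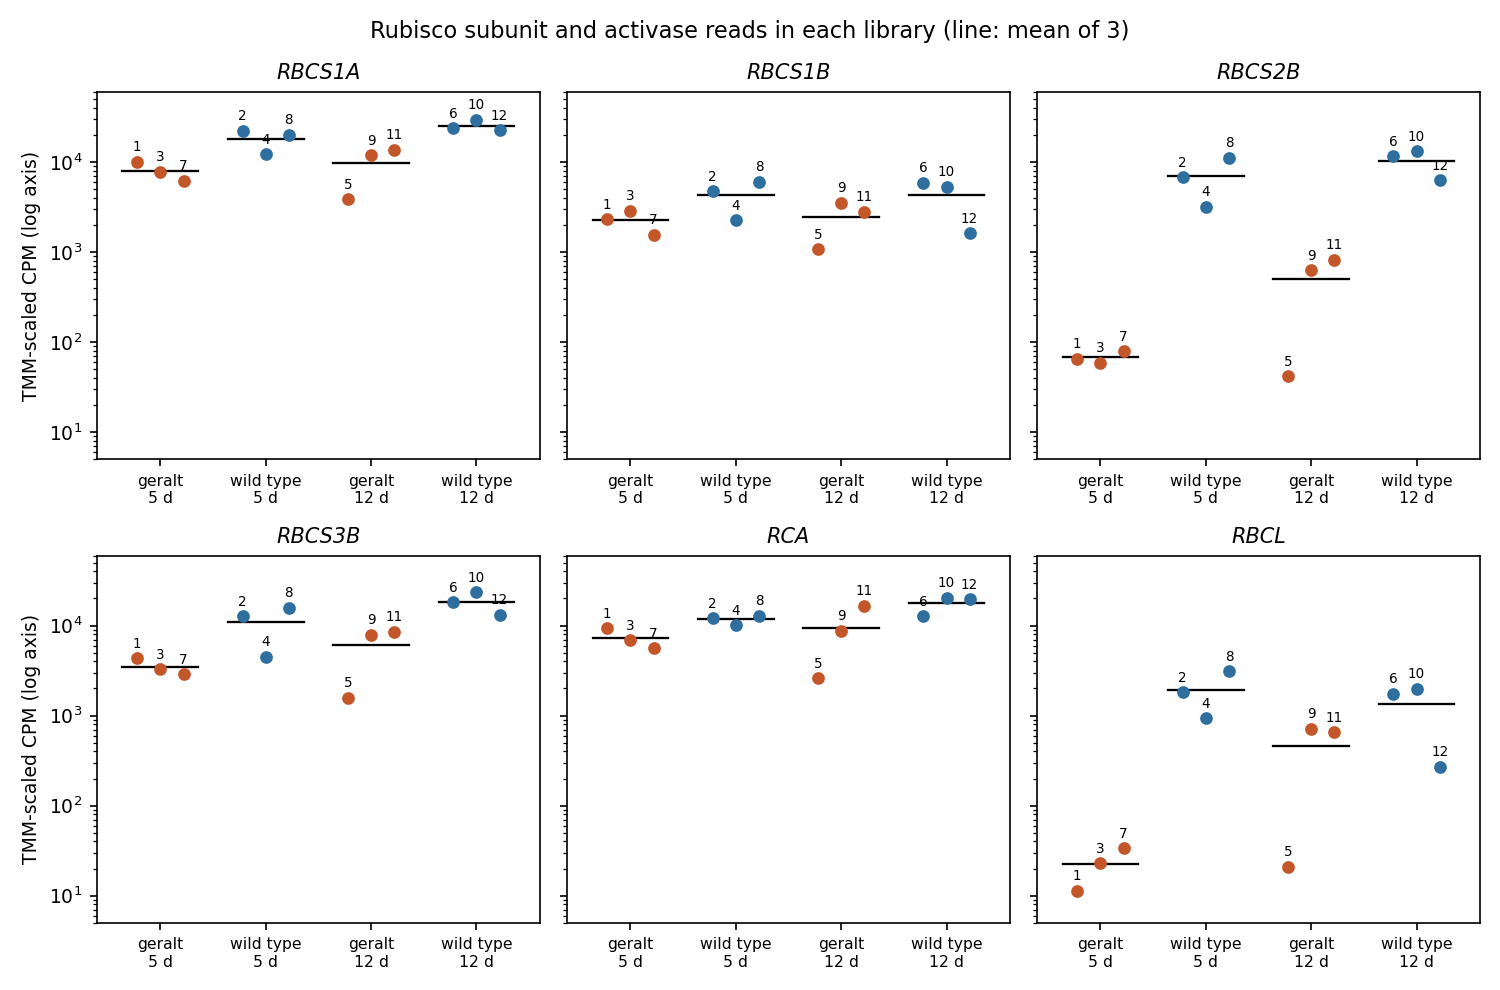
TMM-scaled CPM on a log axis of the 4 small subunit copies, RCA and RBCL in each of the 12 libraries (points, with library numbers), with geralt in orange and wild type in blue and a line at the mean of 3. RBCS2B lies between 41.6 and 824 CPM in geralt and between 3203 and 13260 CPM in wild-type libraries.

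The other 3 small subunit genes and RCA had lower means in geralt by less than a factor of 4, and none of these differences passed edgeR's test. RBCS1A, the most abundant copy, had 10050, 7774 and 6233 CPM in geralt at 5 days, against 22300, 12310 and 20150 CPM in wild type at 5 days. At 12 days it had 3889, 11840 and 13780 CPM in geralt and 23860, 29560 and 22530 CPM in wild type. The genotypes did not overlap at either age, with geralt library 5 lowest of all. Its log2 fold change was -1.19 at 5 days (SE 0.46, edgeR adjusted p = 0.262) and -1.36 at 12 days (SE 0.46, edgeR adjusted p = 0.154), while DESeq2 gave adjusted p = 0.0715 at 5 days and 0.0186 at 12 days.

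RBCS3B had 4308, 3279 and 2882 CPM in geralt at 5 days, against 12780, 4496 and 15820 CPM in wild type at 5 days. Values at 12 days were 1574, 7931 and 8537 CPM in geralt and 18260, 23590 and 13130 CPM in wild type. The genotypes were apart at both ages, narrowly at 5 days, where wild-type library 4 was close to geralt library 1. The log2 fold changes of RBCS3B were -1.66 at 5 days (SE 0.60, edgeR adjusted p = 0.235) and -1.61 at 12 days (SE 0.60, edgeR adjusted p = 0.184). DESeq2 called RBCS3B lower at 5 days (adjusted p = 0.0491) and at 12 days (adjusted p = 0.0422).

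RBCS1B, the least abundant copy in wild type, overlapped between genotypes at both ages. It had 2325, 2893 and 1554 CPM in geralt at 5 days, against 4763, 2266 and 6054 CPM in wild type at 5 days. At 12 days it had 1078, 3544 and 2805 CPM in geralt and 5909, 5332 and 1610 CPM in wild type. Wild-type libraries 4 and 12 were the ones that reached into the range of geralt. RBCS1B had log2 fold changes of -0.95 at 5 days (SE 0.55, edgeR adjusted p = 0.469) and -0.79 at 12 days (SE 0.55, edgeR adjusted p = 0.459).

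RCA had 9361, 6864 and 5640 CPM in geralt at 5 days, against 12090, 10130 and 12930 CPM in wild type at 5 days. The 12-day levels were 2618, 8751 and 16530 CPM in geralt and 12640, 20450 and 19760 CPM in wild type. The genotypes were apart at 5 days and overlapped at 12 days through geralt library 11. Its log2 fold changes were -0.68 at 5 days (SE 0.52, edgeR adjusted p = 0.593) and -0.92 at 12 days (SE 0.53, edgeR adjusted p = 0.363). The 12-day value of RCA was -1.62 without geralt library 11 and -0.48 without geralt library 5, and passed in neither case.

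In all, 1 of the 5 genes passed as lower in geralt at 5 days and 1 at 12 days by edgeR, against a background of 0.227% of all tested genes called lower at 5 days and 0.365% at 12 days. All 5 log2 fold changes were below 0 at both ages, with a median of -1.19 at 5 days and -1.36 at 12 days, where the median over all tested genes was 0.0062 at 5 days and -0.022 at 12 days. The geralt libraries were all below the wild-type libraries for 4 of the 5 genes at 5 days and for 3 at 12 days, against 14.3% of all tested genes at 5 days and 8.91% at 12 days. DESeq2 called 2 of the 5 lower at 5 days and 3 at 12 days. Over the genome it called many more genes than edgeR, 870 at 5 days and 1350 at 12 days in either direction. The authors' deposited table gives, at 5 days, an FDR of 0.0036 for RBCS1A, 0.000291 for RBCS3B, 0.063 for RBCS1B and 0.135 for RCA, and at 12 days an FDR of 0.127 to 0.656 for these 4 genes. In whole seedlings, fewer chloroplast-bearing cells and less RNA per cell cannot be told apart.

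Levels of different genes were compared as TPM. In geralt at 5 days, RBCS1A came first at 11560 ± 2221 TPM, followed by RCA at 6335 ± 1361, RBCS3B at 4528 ± 756, RBCS1B at 2171 ± 566 and RBCS2B at 128 ± 27.8 TPM, whereas wild type at 5 days had RBCS1A at 21970 ± 3612, RBCS3B at 11580 ± 5020, RBCS2B at 11180 ± 5142, RCA at 8657 ± 369 and RBCS1B at 3445 ± 1122 TPM (SD, n = 3 each). At 12 days the order of means within each genotype was the same as at 5 days. In geralt at 12 days RCA and RBCS3B, at 7603 ± 5260 and 7324 ± 4301 TPM, differed by less than their spread, as did RBCS3B and RBCS2B in wild type at 12 days, at 16400 ± 2006 and 13900 ± 3200 TPM (SD, n = 3 each). RBCS2B thus held the last place in geralt, where in wild type it was near RBCS3B.

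Each copy's share of the summed RBCS TPM was set out per library. RBCS2B made up 0.531%, 0.599% and 1.03% of the sum in geralt at 5 days, against 19.9%, 19.5% and 28.2% in wild type at 5 days. At 12 days its share was 0.910%, 3.76% and 4.51% in geralt and 26.1%, 24.8% and 19.5% in wild type. The ranges of the genotypes were far apart at both ages. Averaged over both ages, the RBCS2B share was 21.1 percentage points lower in geralt (two-sided exact permutation test exchanging genotypes within ages, p = 0.005, adjusted p = 0.0075 over 6 measures tested). A p of 0.005 is the smallest that the 400 arrangements allow, and within 1 age the smallest is 0.1.

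Since the shares add up to 100%, the other copies together took more of the sum. RBCS1A held 62.7% ± 1.77 in geralt and 47.2% ± 8.96 in wild type at 5 days, and 57.9% ± 5.43 in geralt and 44.0% ± 6.30 in wild type at 12 days (SD, n = 3 each). RBCS1B held 11.9% ± 2.89 in geralt and 7.09% ± 0.410 in wild type at 5 days, and 10.06% ± 2.17 in geralt and 4.65% ± 2.09 in wild type at 12 days (SD, n = 3 each). Both shares were higher in every geralt library than in any wild-type library of its age (p = 0.005 each by the same exact permutation test, adjusted p = 0.0075). The RBCS3B share overlapped between genotypes at both ages, at 24.7% ± 1.44 in geralt and 23.2% ± 4.43 in wild type at 5 days and at 28.9% ± 4.93 in geralt and 27.9% ± 1.30 in wild type at 12 days (SD, n = 3 each; exact permutation p = 0.515).

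With RBCS2B left out of the sum, the genotypes overlapped in every copy's share at 5 days. RBCS1A then held 61.4% to 64.9% in geralt and 52.5% to 68.9% in wild type at 5 days, and 55.5% to 64.6% in geralt and 54.0% to 63.6% in wild type at 12 days. RBCS1B held 10.0% to 15.3% in geralt and 8.48% to 10.5% in wild type at 5 days, and 8.01% to 12.0% in geralt and 3.03% to 8.94% in wild type at 12 days. The shares of RBCS1A and RBCS1B thus separated the genotypes with RBCS2B in the sum and overlapped without it. RBCS3B overlapped at 5 days, at 23.3% to 26.3% in geralt and 22.6% to 37.0% in wild type, and barely at 12 days, at 23.5% to 33.4% in geralt and 33.3% to 39.0% in wild type.

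**Figure D2:**
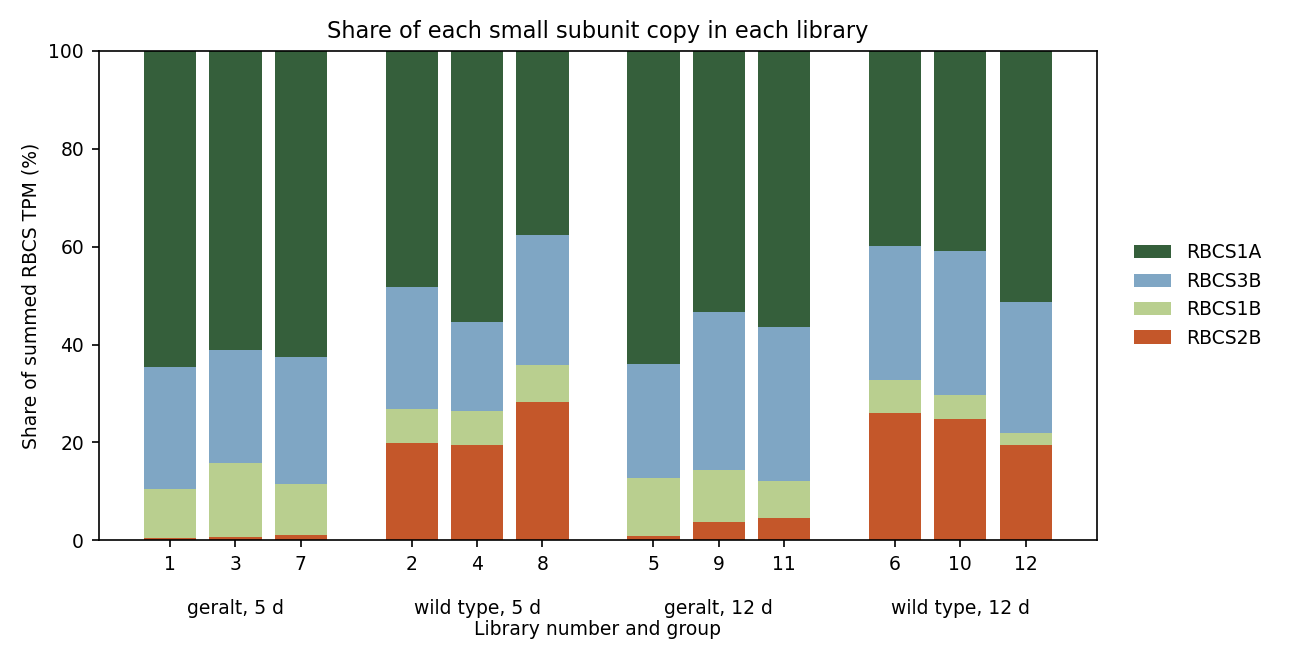
Share of each small subunit copy in the summed RBCS TPM, in percent, as stacked bars for each library, with geralt before wild type at each age. RBCS2B, at the foot of each bar, takes 0.531% to 4.51% in geralt and 19.5% to 28.2% in wild-type libraries.

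The summed RBCS TPM was 21670, 18030 and 15440 in geralt at 5 days, against 52670, 32870 and 59000 in wild type at 5 days. At 12 days it was 10180, 29590 and 32130 in geralt and 62090, 61410 and 52700 in wild type. The sum was lower in every geralt library than in any wild-type library of its age, by 1.41 on the log2 scale when averaged over both ages (exact permutation p = 0.005, adjusted p = 0.0075). The size of this difference depended on the unit. In TPM the mean log2 sum was 14.15 in geralt and 15.51 in wild type at 5 days, and 14.38 and 15.84 at 12 days. In TMM-scaled total reads not divided by length it was 13.73 and 15.22 at 5 days, and 13.97 and 15.8 at 12 days. The ratio of RCA to summed RBCS TPM was 0.363, 0.325 and 0.342 in geralt at 5 days, against 0.158, 0.275 and 0.146 in wild type at 5 days. At 12 days the ratio was 0.260, 0.238 and 0.408 in geralt and 0.127, 0.171 and 0.271 in wild type, where the genotypes overlapped. The log2 ratio was 0.79 higher in geralt over both ages (exact permutation p = 0.015, adjusted p = 0.018). That call ended with RBCS2B left out of the sum, a choice made after the data were seen. The log2 ratio was then 0.44 higher in geralt (exact permutation p = 0.07, adjusted p = 0.084), and the genotypes overlapped at both ages, at 0.327 to 0.365 in geralt and 0.197 to 0.342 in wild type at 5 days. The sum without RBCS2B was still lower in every geralt library than in any wild-type library of its age, by 1.06 on the log2 scale (exact permutation p = 0.005, adjusted p = 0.0075).

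The length that TPM divides by depends on the annotation. The tables give RBCS1B an exon length of 1894 bases, against 935 for RBCS2B, 1268 for RBCS1A and 1410 for RBCS3B, while the shorter of the RefSeq transcripts of RBCS1B has 840 bases. Dividing exon reads by each gene's shortest RefSeq transcript, a choice made after the data were seen, put the RBCS1B share at 18.8% ± 4.20 in geralt and 12.2% ± 0.716 in wild type at 5 days (SD, n = 3 each). The RBCS2B share was then 0.509% ± 0.196 in geralt and 17.2% ± 3.75 in wild type at 5 days, and 2.19% ± 1.37 in geralt and 18.1% ± 2.56 in wild type at 12 days (SD, n = 3 each).

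The tables also count reads in exons, across exon junctions and in introns. Reads of RBCS2B in the intron column differed far less between genotypes than its exon reads. At 5 days RBCS2B had 350, 164 and 162 intron reads in geralt libraries 1, 3 and 7, against 489, 1461 and 1348 in wild-type libraries 2, 4 and 8. The 12-day counts were 43, 601 and 630 in geralt libraries 5, 9 and 11, against 588, 1393 and 798 in wild-type libraries 6, 10 and 12. All of these were unique reads. Scaled to CPM, the intron column held 4.80, 2.54 and 2.97 in geralt and 12.54, 11.16 and 25.96 in wild type at 5 days, 4.81-fold lower on average and without overlap, where exon reads were 109-fold lower. The 12-day averages were 8.88 ± 7.03 CPM in geralt and 18.7 ± 15.1 CPM in wild type (SD, n = 3 each), and the genotypes overlapped, where exon reads were 21.2-fold lower and did not overlap.

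As a share of all RBCS2B reads, the intron column held 7.32%, 4.33% and 3.78% in geralt at 5 days, against 0.184%, 0.349% and 0.233% in wild type at 5 days. At 12 days it held 1.87%, 2.13% and 1.52% in geralt and 0.0902%, 0.272% and 0.151% in wild type. The lowest geralt share, in library 11, had a 95% Clopper-Pearson interval of 1.40% to 1.64%, and the highest wild-type share, in library 4, one of 0.331% to 0.367%. The other copies overlapped between genotypes in this share at both ages, except RBCS3B at 5 days, where geralt was lower at 0.0567% to 0.0776% against 0.0965% to 0.204% in wild type. RBCS1A was 3.00-fold lower in geralt in intron reads and 2.28-fold lower in exon reads at 5 days, and 2.60-fold and 2.57-fold lower at 12 days. RBCS3B was 6.19-fold lower in intron reads and 3.16-fold lower in exon reads at 5 days, and 2.38-fold and 3.05-fold lower at 12 days. The ratio of mean intron shares, geralt over wild type, was 20.1 at 5 days and 10.8 at 12 days for RBCS2B, and 0.466 to 1.196 for the other copies. For RCA it was 0.787 at 5 days and 1.74 at 12 days, and the genotypes overlapped at both ages.

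Most of the RBCS2B reads that remained in geralt crossed an exon junction, with shares of 77.4% to 86.9% in geralt libraries, against 83.6% to 92.3% in wild-type libraries. The coding region of RBCS2B has 2 introns of 90 and 140 bases, shorter than a read. The intron column also held reads of a gene without an intron. RBCL, whose 1440 bases the tables give as all exon, had 3.27% to 8.13% of its reads there in geralt and 3.40% to 5.13% in wild-type libraries, although the median of genes without introns that had at least 1000 reads was 0% in each library. For genes with introns and at least 1000 reads, the median was 0.586% to 0.989% in geralt and 0.507% to 1.08% in wild-type libraries. Their 90th percentile was 2.60% to 4.11% in geralt and 2.30% to 4.37% in wild-type libraries. The RBCS2B share was above the 90th percentile of its library in geralt libraries 1 and 3 and below it in all others, including those of 12 days. Neither counting rules nor read positions are given, and no test was made of these shares.

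**Figure D3:**
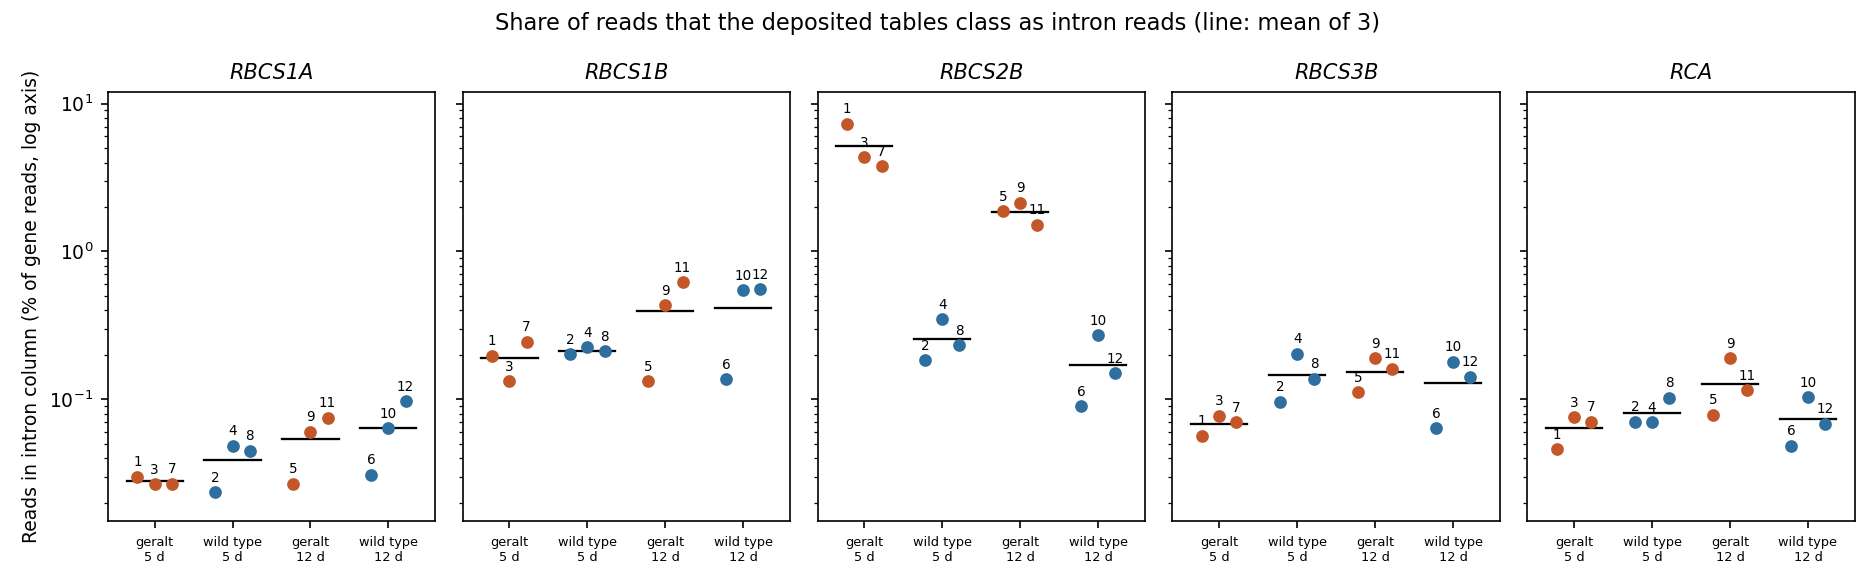
Reads that the deposited tables class as intron reads, as a percent of all reads of the gene on a log axis, for the 5 genes in each library (points, with library numbers), with geralt in orange, wild type in blue and a line at the mean of 3. RBCS2B lies at 1.52% to 7.32% in geralt and at 0.0902% to 0.349% in wild-type libraries.

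Between 5 and 12 days no gene of the genome passed edgeR's test in geralt (0% called higher) or in wild type (0% called higher), with 974 genes in geralt and 4179 in wild type at an unadjusted p under 0.05. DESeq2 called 62 genes in geralt and 1084 in wild type. RBCS2B had a log2 fold change of 2.88 between 12 and 5 days in geralt (SE 0.81, edgeR adjusted p = 0.865). That value rests on libraries 9 and 11, since library 5 had no more RBCS2B than the libraries of 5 days. Without library 5 it was 3.42 (edgeR adjusted p = 0.0479), and DESeq2 with all libraries gave 2.87 (adjusted p = 0.0146). The other 4 genes had log2 fold changes of 0.13 to 0.79 in geralt and, with RBCS2B, -0.026 to 0.73 in wild type between 12 and 5 days, none of which passed. The genotype effect on RBCS2B was 2.32 log2 units nearer 0 at 12 days than at 5 days (SE 1.07, edgeR adjusted p = 0.482), so a difference between ages was not established. No gene passed that test of the difference by edgeR (0% called), with 2185 at an unadjusted p under 0.05 and 59 called by DESeq2.

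RBCL, the plastid gene of the large subunit (bases 54958 to 56397 of the plastid genome), had a fold change at 5 days close to that of RBCS2B. It had 11.3, 23.0 and 33.7 CPM in geralt at 5 days, against 1810, 942 and 3093 CPM in wild type at 5 days. At 12 days it had 20.9, 715 and 652 CPM in geralt and 1748, 1979 and 271 CPM in wild type. Geralt library 5 was again at the level of the libraries of 5 days, and wild-type library 12 was below geralt libraries 9 and 11. The log2 fold change of RBCL was -6.43 at 5 days (SE 1.2, edgeR adjusted p = 0.0504), just above the threshold, and -1.53 at 12 days (SE 0.97, edgeR adjusted p = 0.411). The 5-day call of RBCL depended on the setting. It passed with unique reads (edgeR adjusted p = 0.0489) and by DESeq2 (adjusted p = 1.21e-06), and without library 4, 5 or 12 (edgeR adjusted p of 0.00407 to 0.0374). It did not pass with RLE size factors (edgeR adjusted p = 0.0524) or without any other single library (0.0585 to 0.258). Libraries were made from polyadenylated RNA, and plastid messenger RNAs do not carry the long tails of nuclear ones, so these counts need not follow the amount of RBCL RNA.

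Of 17 genes for partners and assembly factors of Rubisco, 0 passed edgeR's test in geralt at either age, with 3 at 5 days and 7 at 12 days at an unadjusted p under 0.05. Of all 21122 tested genes, 2986 at 5 days and 4005 at 12 days had an unadjusted p under 0.05 in geralt against wild type. DESeq2 called RBCL, BSD2 and the assembly chaperone RBCX2 lower at 5 days, and at 12 days RBCX1 lower and CPN60A2 and CPN60B2 higher. BSD2, a chaperone of Rubisco assembly, had 46.9 ± 8.06 CPM in geralt and 93.5 ± 16.5 CPM in wild type at 5 days (SD, n = 3 each; log2 fold change -0.997, SE 0.28, edgeR adjusted p = 0.138). CPN60B2, a subunit of the chloroplast chaperonin, had 100.2 ± 30.8 CPM in geralt and 34.1 ± 15.7 CPM in wild type at 12 days (SD, n = 3 each; log2 fold change 1.56, SE 0.35, edgeR adjusted p = 0.0588), and CPN60A2, another of its subunits, had a log2 fold change of 0.85 (SE 0.24, edgeR adjusted p = 0.107). At 5 days CPN60B2 had 123.3 ± 33.6 CPM in geralt and 117.1 ± 14.6 CPM in wild type (SD, n = 3 each). Between 12 and 5 days its log2 fold change was -1.78 in wild type (SE 0.35, edgeR adjusted p = 0.142) and -0.30 in geralt (SE 0.34). The 12-day difference thus went with a lower level in wild type. DESeq2 called CPN60A1, CPN60B2 and CPN60B3 lower and RBCX1 higher at 12 than at 5 days in wild type. The median log2 fold change of the list was -0.34 at 5 days and 0.10 at 12 days.

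Of 19 other enzymes of the Calvin cycle, 0 passed edgeR's test at either age, with 8 at 5 days and 5 at 12 days at an unadjusted p under 0.05, and DESeq2 called SBPASE, HCEF1, GAPA-1 and GAPA-2 lower at 5 days and PRK, phosphoribulokinase, lower at 12 days. The background at that unadjusted p was 2986 of 21122 tested genes at 5 days and 4005 at 12 days. The medians of the log2 fold changes of the 19 enzymes were -0.87 at 5 days, with 15 of 19 below 0, and -0.55 at 12 days, with 16 of 19 below 0. The gene of sedoheptulose-bisphosphatase, SBPASE, had 78.6 ± 11.7 CPM in geralt and 225 ± 66.0 CPM in wild type at 5 days (SD, n = 3 each; log2 fold change -1.52, SE 0.33, edgeR adjusted p = 0.0738). HCEF1, the chloroplast fructose-bisphosphatase, had a log2 fold change of -1.45 at 5 days (SE 0.38, edgeR adjusted p = 0.116). The subunits of glyceraldehyde-3-phosphate dehydrogenase GAPA-1 and GAPA-2 had -1.14 (SE 0.30, edgeR adjusted p = 0.118) and -1.53 (SE 0.45, edgeR adjusted p = 0.152) on that scale. The log2 fold changes of RBCS1A, RBCS1B, RBCS3B and RCA, at -1.66 to -0.68 at 5 days, lay within the range of these enzymes or close to it, which was -1.55 to 0.92, whereas that of RBCS2B lay outside.

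**Figure D4:**
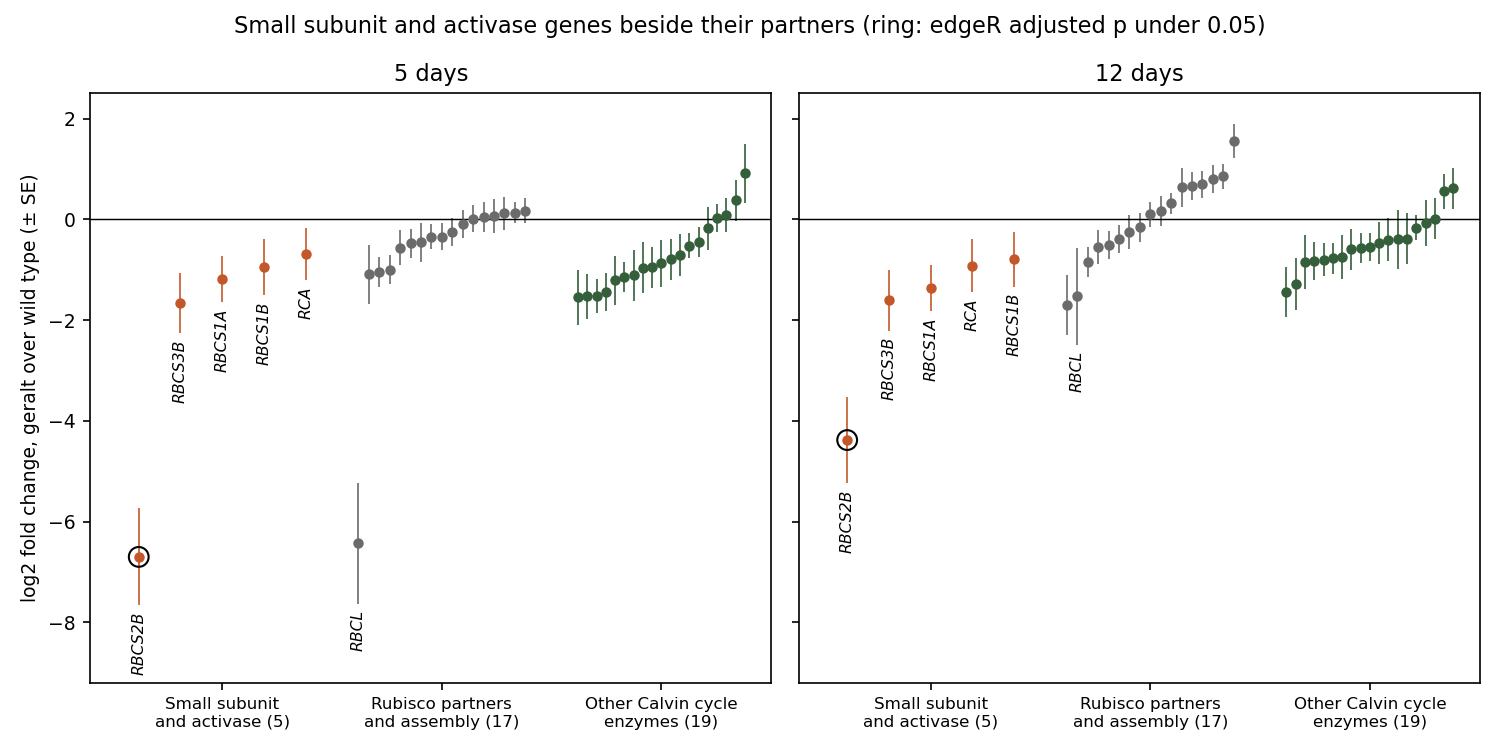
Log2 fold changes of geralt over wild type (points, bars of 1 SE) at 5 and at 12 days for the 5 small subunit and activase genes, 17 Rubisco partners and assembly factors and 19 other Calvin cycle enzymes, each list in ascending order. Rings mark an edgeR adjusted p under 0.05, which RBCS2B alone has, at -6.70 at 5 days and -4.38 at 12 days.

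Markers of roots, which whole seedlings hold, and of seed storage were followed. The summed CPM of 12 root markers was 229 to 356 in geralt and 217 to 263 in wild type at 5 days, and 211 to 418 in geralt and 247 to 1046 in wild type at 12 days, so the genotypes overlapped at both ages. Wild-type library 12 stood apart from the others of its group. With log2 CPM centred on each gene's mean, its median root marker was at -1.49, against 0.649 in library 6 and 0.72 in library 10. All 12 root markers had reads in every library but wild-type library 12, where 1 was at 0, and 0 of 12 passed edgeR's test at either age (2 at 5 days and 1 at 12 days at an unadjusted p under 0.05, and NRT2.1 called lower by DESeq2 at both). That unadjusted p was reached by 2986 of all 21122 tested genes at 5 days and by 4005 at 12 days. NRT2.1, a nitrate transporter of roots, ranged from 0.294 to 0.341 CPM in geralt and from 0.940 to 15.6 CPM in wild type at 5 days. The 9 seed storage markers summed to at most 1.15 CPM in geralt and 0.413 CPM in wild type at 5 days and to at most 4.13 CPM in geralt and 11.5 CPM in wild type at 12 days, and 2 to 8 of the 9 were at 0 in each library. Of the 2 seed markers with enough reads, 0 passed edgeR's test at either age (1 at 5 days and 0 at 12 days at an unadjusted p under 0.05, and 0 by DESeq2). The part of tissue make-up in the results was not tested.

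Likeness was measured as the root mean square difference of centred log2 CPM over the 12 libraries. Values were not scaled to each gene's spread. The large fold changes of RBCS2B by themselves therefore put it far from genes with smaller ones. RBCS2B differed from the other 4 genes by 2.20 to 2.73 log2 units, and these differed from each other by 0.329 to 0.718. The genes nearest to RBCS1A were PSBO1, of the oxygen-evolving complex of photosystem II (0.137), CCB3, an assembly factor of the cytochrome b6f complex (0.155), and the antenna gene LHCB2.1 (0.179). Nearest to RBCS3B were the antenna genes CAB1 (0.180) and LHCA1 (0.213) and PSAG of photosystem I (0.240). AT2G29290, HPR, the photorespiratory hydroxypyruvate reductase, and CRL were nearest to RCA (0.164 to 0.239). Nearest to RBCS1B were AT3G02120, AT1G56190 (PGK2, one of the 19 other Calvin cycle enzymes) and AT5G57345 (0.255 to 0.283). No gene was as near to RBCS2B, for which COR413IM1, which encodes a chloroplast membrane protein induced by cold (0.845), LHCB2.3 (1.01) and FUM2, the cytosolic fumarase (1.14), came first.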

How the data were processed

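The authors deposited a table per library with counts of total, unique, exon, exon-exon and intron reads of each gene beside TPM and RPKM values, named so in the file headers. The submitters' processing notes name TAIR10 as the build. No source used here gives the aligner, the counting tool, the use of strand or how pairs were counted. RPKM served only as an alternative unit of the shares, which are the same in RPKM as in TPM. The authors also deposited 2 tables of their own comparisons, whose columns are log2 fold changes, p-values and FDR values, per the file headers, with no test named.

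Groups came from the sample titles. Total gene reads were filtered with filterByExpr (21122 of 27655 genes kept), scaled by TMM and tested with edgeR 4.0.16 (R 4.3.3) by the quasi-likelihood test over all 12 libraries, with a mean per group, 8 residual degrees of freedom and Benjamini-Hochberg adjustment over all genes. DESeq2 1.42.0 was an alternative. Shares and ratios were compared by exact permutation tests (scipy 1.17.1). Other alternatives were unique or exon reads, RLE size factors, no filter on low counts, organellar genes left out, only the 6 libraries compared, other units of the shares and libraries left out. Between libraries of 1 group, chi-square per degree of freedom was 69.5 to 518, far above sampling noise, and none was merged. The design text calls the replicates biological and gives no more on them, and p-values cover the spread between these libraries, part of which may be technical. The lane of a library is not given and was no term.

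Of the 27445 listed chromosome genes, 27444 had the same start and end in TAIR10.1, from which sequences were read. The members, lists and alternatives were chosen with earlier results of these data known. Named from the other lists were up to 4 genes with the smallest p in either geralt contrast, always RBCL, and for likeness 3 genes per member among those with a mean log2 CPM of at least 1 (prior count 2).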

Additional observations from a re-analysis of the deposited data

How the results depend on the processing

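In geralt against wild type, the direction of all 5 genes held under every alternative run at both ages, and so did that of the shares and sums, but for the RBCS3B share. Its difference of 1.27 points became -0.85 with total and -0.80 with unique reads not divided by length, -0.81 with the shortest transcripts and -0.24 without wild-type libraries 4 and 12. The last 2 of these settings were chosen after the data were seen, as was leaving RBCS2B out of the sum, with which the log2 ratio of RCA to the sum fell to 0.44 and no longer passed (exact permutation adjusted p = 0.084). The causes of the changes below were not tested.

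The number of genes called at 5 days was 870 by DESeq2, 547 without wild-type library 4 and geralt library 5, 960 with only the 6 libraries of that age, 364 without wild-type libraries 4 and 12, and 4 to 314 with single libraries left out. At 12 days these numbers were 1350, 62, 7, 71 and 4 to 504. Between ages, DESeq2 called 62 genes in geralt and 1084 in wild type, leaving out libraries 4 and 5 gave 5 in geralt, and leaving out single libraries gave 0 to 8 in geralt and 0 to 426 in wild type. For the difference between ages DESeq2 called 59 genes, and 0 to 2 were called with single libraries left out.

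RBCS1A passed without libraries 4 and 5 at 5 days (log2 fold change -1.40, edgeR adjusted p = 0.0313) and by DESeq2 at 12 days (-1.37). RBCS3B passed by DESeq2 at 5 days (-1.66) and 12 days (-1.62), and without libraries 4 and 5 at 5 days (-2.03, edgeR adjusted p = 0.0106). RBCS2B at 12 days did not pass with only the 6 libraries of that age (-4.39) or without libraries 4 and 12 (-4.64, edgeR adjusted p = 0.0675). With single libraries left out, RBCS2B ranged from -7.05 to -6.21 at 5 days and from -4.95 to -3.85 at 12 days.

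Uncalled values near 0 changed sign. Between 12 and 5 days in geralt, with single libraries left out, RBCS1A ranged from -0.027 to 0.67, RBCS1B from -0.22 to 0.49, RCA from -0.36 to 0.79 and PHR2 from -0.23 to 0.25. In wild type, RBCS1B ranged from -0.34 to 0.36 and was 0.055 without libraries 4 and 12, and PHR2 ranged from -0.25 to 0.44 and was -0.24 without libraries 4 and 5 and -0.26 without 4 and 12. The difference between ages ranged from -0.48 to 0.19 for RBCS1A, -0.23 to 0.50 for RBCS1B, -0.30 to 0.49 for RBCS3B, -0.93 to 0.19 for RCA and -0.47 to 0.23 for PHR2. Without libraries 4 and 5 it was 0.41 for RBCS1A, 0.29 for RCA and 0.18 for PHR2, and without 4 and 12 it was 0.23 for PHR2.

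No paired analysis was run, since the labels tie no geralt library to a wild-type library. Read depth set no limit for the total reads of the 5 genes, each of which had at least 2303 reads in every library. The intron column was thinner, with 43 reads of RBCS2B in geralt library 5.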
